A study of Rattus norvegicus with 12 samples.

Results

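miR-199a and miR-214 are small regulatory RNAs that are cut from 1 long transcript. The rule named 4 mature strands, which are rno-miR-199a-3p, rno-miR-199a-5p, rno-miR-214-3p and rno-miR-214-5p (rno for rat, left out from here on), and took the rows of the authors' deposited tables that carry exactly these names. 3 of the 4 were listed, the same 3 in both tables, among 574 heart and 367 exosome miRNAs. miR-214-5p was listed in neither table and has no value here. The members were named by identity and not by a measured value, although results of these data were already known when they were chosen.

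The study sequenced small RNA from SD rats, with 6 samples labelled heart and 6 labelled serum. By the design text, the coronary artery was tied for 30 min and blood flow was then restored for 1 week before the heart was taken. Each table sets 1 group, headed CK, against another, headed M. The labels give no meaning for CK or M, do not say which samples belong to either, and give no age. Whether CK was operated on is therefore unknown, and both names are kept. The exosome table was matched to the serum samples, since exosomes are vesicles that cells release into body fluids and no other samples remain. The deposited values are group means of normalized reads, which are read counts divided by a size factor per library. The whole reads of the 3 CK and 3 M libraries behind each mean were recovered by arithmetic, with exactly 1 solution for every mean of the members. The libraries carry numbers here from the shallowest to the deepest of their group, and none can be tied to a labelled sample.

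A miRNA hairpin has a 5p and a 3p arm, either of which can be loaded into the silencing complex, where bases 2 to 8 (the seed) pair with target mRNAs. In mammals the hairpins of miR-199a-2 and miR-214 lie close together in Dnm3os, a noncoding transcript that runs antisense to an intron of the dynamin gene Dnm3 and is active in mesenchyme and in fibroblasts. In mouse and human another locus also makes miR-199a, and reads of the mature strand do not tell the loci apart. In rodent cardiac muscle cells, miR-199a-5p represses the hypoxia factor Hif1a, miR-199a-3p promotes cell division, and in mouse miR-214 represses the sodium-calcium exchanger and limits calcium overload. In human blood, platelets are a rich source of miR-199a-3p.

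The mature sequences are shown because miR-199a-3p and miR-199a-5p behave differently in these data. They come from RefSeq (rat build GRCr8), where all 4 members were found on the plus strand of chromosome 13, written 5′ to 3′ with the seed in capitals.
miR-199a-3p: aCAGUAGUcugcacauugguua
miR-199a-5p: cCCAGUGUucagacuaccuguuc
miR-214-3p: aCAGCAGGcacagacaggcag
miR-214-5p: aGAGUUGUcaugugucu
All 4 seeds differ, so each strand pairs with its own set of sites. In the RefSeq table of mature rat miRNAs, none of the 4 seeds was found in another miRNA.

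The hairpin of miR-214 (108 bases) is shown next because a further miRNA gene, Mir3120, lies over it on the opposite strand. Capitals mark miR-214-5p at bases 12 to 28 and miR-214-3p at bases 69 to 89.
Mir214 hairpin: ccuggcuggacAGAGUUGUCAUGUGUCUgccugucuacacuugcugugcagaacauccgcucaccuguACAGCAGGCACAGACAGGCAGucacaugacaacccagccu
Mature miR-3120 is the reverse complement of bases 28 to 48 of this hairpin and so does not cover miR-214-3p. It was listed in the heart table only. Its reads were 3, 13 and 2 in CK libraries 1 to 3 and 2, 0 and 1 in M libraries 1 to 3. The 2 groups overlapped at these few reads (p = 0.226, adjusted p = 0.972 by the authors' deposited table), and no direction is read from them.

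The depth came to an estimated 2252914 to 6609918 miRNA reads per heart library and 1695632 to 5328355 per exosome library. Muscle miRNAs matched the label of the heart samples, with 205731 (CK) and 251909 (M) normalized reads of miR-1-3p by the authors' deposited table. In the exosome table the red cell miRNA miR-486 had 257951 and 287407 and the liver miRNA miR-122-5p 30260 and 16968 normalized reads. The cardiac miRNAs miR-208a-3p and miR-208b-3p were not listed there. Other muscle miRNAs were, namely miR-1-3p (3832 and 4091), miR-133a-3p (431 and 315), miR-499-5p (67.8 and 103) and miR-133b-3p (0.139 and 0.411). Heart M library 2 stood apart from the other 5. It was the highest of the 6 libraries for 103 of the 313 heart miRNAs whose reads were solved at a mean of 10 or more and the lowest for 88, against 33 to 61 and 30 to 52 in the other heart libraries. The members' heart differences, the comparison of the tables and the likeness to other miRNAs are given with and without it. The authors' test cannot be repeated without a library.

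In heart, all 3 listed members had higher means in M than in CK, and none passed the authors' test. The ratios of the means were 2.51 for miR-199a-3p, 5.30 for miR-199a-5p and 3.79 for miR-214-3p. Over all 574 heart miRNAs 51.4% had a higher mean in M, and the median log2 fold of the 510 with both means above 0 was 0.03. In bulk tissue, more cells that make a miRNA and more of it per cell cannot be told apart.

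miR-199a-3p had 10608, 7951 and 11292 normalized reads in heart CK libraries 1, 2 and 3 and 16478, 44663 and 13694 in M libraries 1, 2 and 3. All M libraries lay above all CK libraries, with M library 2 far above the other M libraries. The means were 9950.4 and 24945 (p = 0.113, adjusted p = 0.796 by the authors' deposited table).

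The opposite arm, miR-199a-5p, had 3522, 5880 and 2938 normalized reads in CK and 10266, 48514 and 6645 in M. Here too the groups did not overlap, and the highest CK library came within 1.13-fold of the lowest M library. Their means were 4113 and 21809 (p = 0.146, adjusted p = 0.866 by the authors' deposited table).

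miR-214-3p had 1068, 1558 and 796 normalized reads in CK and 2492, 9067 and 1425 in M. CK library 2 lay above M library 3, so these groups overlapped. The means were 1141 and 4328 (p = 0.155, adjusted p = 0.884 by the authors' deposited table). Groups without overlap with M higher were thus found for 2 of 3 members, where 16.6% of these 313 heart miRNAs showed this. Without M library 2 it was 20.1%.

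**Figure D1:**
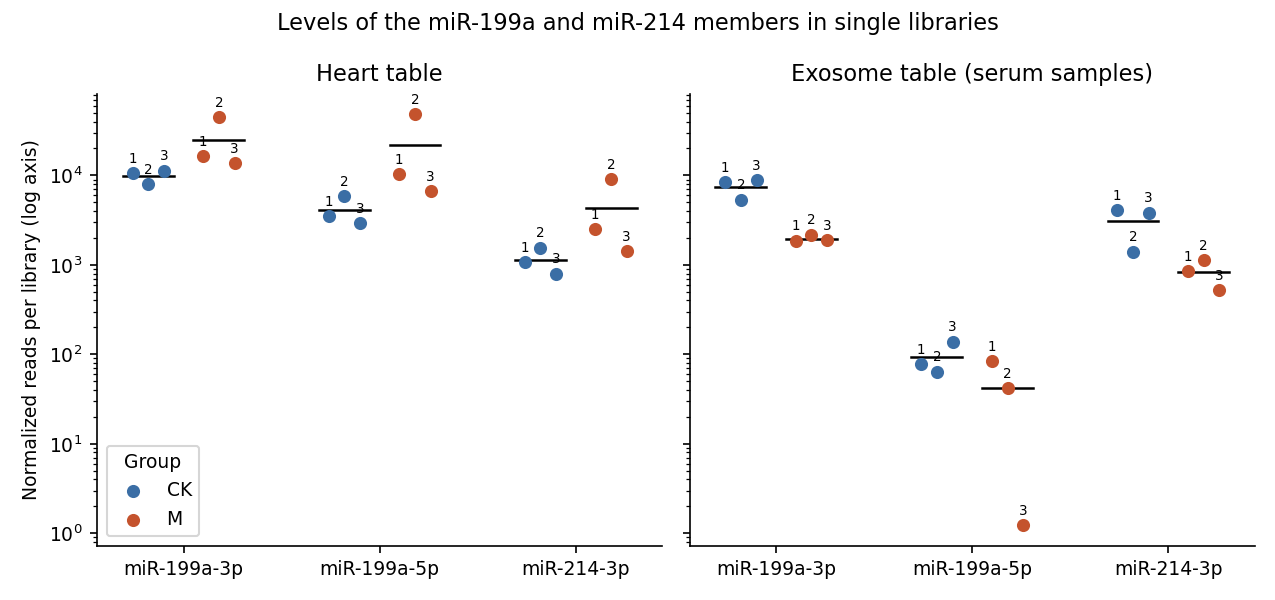
Normalized reads of the 3 listed members in every library of the heart table (left) and the exosome table (right), on a log axis. Points are libraries with their number, black lines are group means, and colours give CK and M. In heart every M point of miR-199a-3p and miR-199a-5p sits above every CK point, CK library 2 of miR-214-3p sits above M library 3, and M library 2 is highest for each member. In the exosome table the M points of miR-199a-3p and miR-214-3p sit below the CK points.

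The recovered libraries were also compared by limma, a linear model that shares its estimate of the spread across miRNAs, on log2(normalized reads + 1) of 313 heart miRNAs. The log2 difference M minus CK was 1.13 (SE 0.42) for miR-199a-3p, 1.92 (SE 0.65) for miR-199a-5p and 1.53 (SE 0.60) for miR-214-3p. Unadjusted p values from limma were 0.0248, 0.0176 and 0.0325, in a table where 22.0% of miRNAs reached 0.05. After Benjamini-Hochberg adjustment over all 313, limma gave 0.177, 0.153 and 0.196, and no member passed. The authors' test called 0.697% of heart miRNAs at an adjusted p below 0.05 and limma 0.958%.

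Much of the size of the heart differences came from M library 2. Without it the ratio of means was 1.52 for miR-199a-3p, 2.06 for miR-199a-5p and 1.72 for miR-214-3p, with every direction kept. The spread also shrank, and limma without this library gave adjusted p = 0.0683, 0.0101 and 0.0937 in the same order, so that miR-199a-5p passed, as did 4.15% of the 313 in that fit. Leaving out any other heart library gave limma adjusted p of 0.0623 to 0.449 for the 3 members. In M libraries 1 and 3 alone, miR-199a-5p lay 1.32 and 0.69 above the CK mean on the log2 scale, against 3.56 in M library 2.

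Markers of other cell types were set beside the members across the heart libraries. The cardiomyocyte list had 6 of 6 members listed, none at 0, with 1 higher and 5 lower means in M. The higher one was miR-1-3p, the most abundant, and the sum of the 6 means was 317692 in CK and 313934 in M. Of the 6, 3 could be solved at a mean of 10 or more (miR-133b-3p, miR-208a-3p and miR-208b-3p). Their summed level was 2719 to 3781 normalized reads in CK and 2123, 855 and 2719 in M libraries 1, 2 and 3. miR-208a-3p, made from an intron of the alpha myosin heavy chain gene of heart muscle, had 1236, 838 and 1597 in CK and 785, 194 and 948 in M. The library with the highest miR-199a and miR-214 was thus the one with the lowest level of these 3 solved, less abundant muscle miRNAs. Medians against the CK mean were also lowest in M library 2 for the solved endothelium (-1.04), red cell (-0.96) and smooth muscle (-0.71) markers. These were log2 medians of 1, 3 and 2 miRNAs. The most abundant endothelium and smooth muscle markers could not be solved and had higher means in M. They were miR-126a-3p (308114 in CK and 378812 in M) and miR-143-3p (488987 and 630699). Lower means in M were found for the unsolved miR-145-5p (46309 and 30897) and miR-486 (81592 and 37987). M library 2 had the highest medians of the leukocyte (1.26), platelet (0.85) and mesenchymal (1.23) markers, and neither extreme for liver markers (-0.02). The first of these were medians of 6 leukocyte, 2 platelet and 14 mesenchymal miRNAs, and miR-223-3p is in both the leukocyte and the platelet list. The unsolved platelet markers miR-126a-3p, miR-24-3p and miR-191a-5p had ratios of M to CK means of 1.23, 1.14 and 0.892. The leukocyte list, with 6 of 6 members listed and none at 0, had summed levels of 12838 to 17312 in CK and 15803 to 18059 in M. Its means were higher in M for 5 members and lower for 1, and the median member lay 0.68 to 1.26 above the CK mean in the M libraries, on the log2 scale. The lower one was miR-150-5p of mature lymphocytes, the most abundant of the list in CK, with 12639, 8771 and 9788 normalized reads in CK and 6044, 3364 and 6993 in M (p = 0.0258, adjusted p = 0.574 by the authors' deposited table). The part of any of these cell types in the members' values was not tested.

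**Figure D2:**
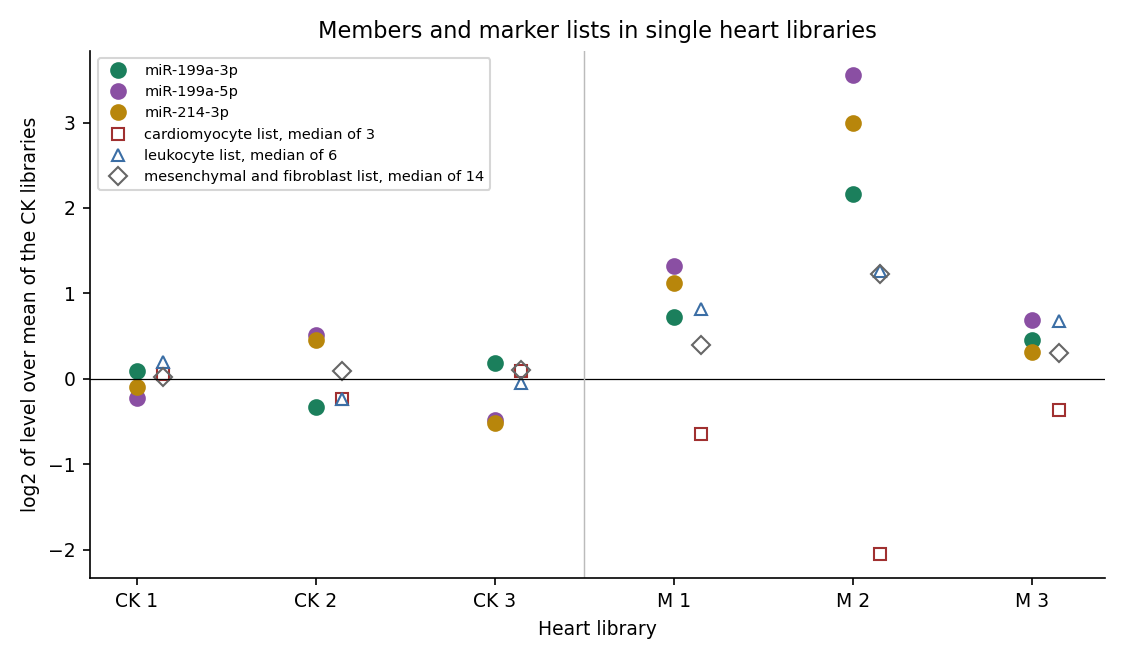
Each heart library is 1 position on the horizontal axis, and the vertical axis is the log2 of a level over the mean of the 3 CK libraries. Filled circles are the 3 listed members and open symbols are medians of marker lists. M library 2 has the highest values of the members (2.16, 3.56 and 2.99) and the lowest median of the cardiomyocyte list (-2.05).

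In the exosome table miR-199a-3p fell in M, with the smallest p of all 367 miRNAs, and miR-214-3p was lower by a similar ratio. The means of miR-199a-3p were 7513 in CK and 1967 in M, a 3.82-fold fall (p = 6.63e-07, adjusted p = 0.000243 by the authors' deposited table). The authors' test called 1.36% of the 367 miRNAs lower in M at an adjusted p below 0.05. Means of 59.1% of all exosome miRNAs were lower in M, and the median log2 fold of the 217 with a larger mean of at least 100 was -0.08.

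In exosome CK libraries 1, 2 and 3, miR-199a-3p had 8387, 5379 and 8773 normalized reads, and in M 1865, 2164 and 1873. The M libraries lay within 1.16-fold of each other and all below the lowest CK library. By limma over 270 exosome miRNAs the log2 difference M minus CK was -1.90 (SE 0.28, adjusted p = 0.00447). The ratio of CK to M stayed between 3.50 and 4.36 whichever library was left out. The limma call was lost without CK library 1 (adjusted p = 0.0633), CK library 3 (0.110), M library 1 (0.183) or M library 2 (0.0663), and was kept without CK library 2 (0.0214) or M library 3 (0.0323).

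miR-214-3p had 4087, 1405 and 3838 normalized reads in exosome CK libraries and 850, 1127 and 523 in M libraries. CK library 2 was the lowest of its group for this member, as for miR-199a-3p, yet lay above every M library. The means were 3110.2 and 833, a ratio of 3.73 that did not pass after adjustment (p = 0.00704, adjusted p = 0.112 by the authors' deposited table). In limma the log2 difference was -1.82 (SE 0.46, adjusted p = 0.0459), just past the threshold that 1.48% of the 270 passed with M lower. This call was lost when any single library was left out, with limma adjusted p of 0.0747 to 0.391.

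miR-199a-5p was scarce in the exosome libraries. It had 59, 85 and 334 reads in CK libraries 1, 2 and 3 and 64, 34 and 1 in M libraries 1, 2 and 3. As normalized reads these were 77.1, 63.6 and 139 in CK and 83.4, 42.1 and 1.23 in M, and the groups overlapped. The means of 93.2 and 42.2 did not differ beyond this spread (p = 0.576, adjusted p = 1 by the authors' deposited table). Its log2 fold of -1.14 became -2.11 without M library 1 and -0.57 without M library 3. At these reads the counting error alone was 5.47% to 17.1% in 5 of the libraries and 100% in M library 3, against at most 4.86% for either other member in any library. Of the 3 members, 2 had CK and M libraries without overlap, as did 17.8% of 270 exosome miRNAs with solved reads in either direction.

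Platelet-associated miRNAs were looked at beside these values. Of the 6 named, 5 were listed in the exosome table, none at 0. Of these, 4 had higher means in M and 1 a lower mean, and none passed at an adjusted p below 0.05. miR-223-3p of myeloid cells and platelets had 26065 and 32691 normalized reads (p = 0.265), miR-191a-5p 218018 and 340104 (p = 0.0427), and miR-24-3p 194338 and 115360 (p = 0.0119, all from the authors' deposited table). The summed mean of the 5 was 441892 in CK and 492166 in M. The part of platelets in the members' values was not tested.

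The directions in heart and in the exosome table were opposite for all 3 members. A limma fit over both tables asked whether the M against CK difference itself differed, over 211 miRNAs solved in all 12 libraries at a mean of 10 or more in each table. For miR-199a-3p the heart difference exceeded the exosome difference by 3.04 on the log2 scale (SE 0.53, 95% interval 1.88 to 4.19, adjusted p = 0.00514), and this passed whichever library was left out (adjusted p = 0.00219 to 0.0238). For miR-214-3p the excess was 3.35 (SE 0.88, interval 1.43 to 5.27), which did not pass in limma (adjusted p = 0.0591). It passed when exosome CK library 2, exosome M library 2 or heart M library 3 was left out (limma adjusted p = 0.0220, 0.0492 and 0.0184). For miR-199a-5p it was 4.07 with a wide interval of 0.61 to 7.52 (limma adjusted p = 0.174). Of the 211 miRNAs, limma called 1.90% with heart higher at an adjusted p below 0.05.

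Permuting CK and M within each table gives 400 arrangements, and the smallest two-sided p they can give is 0.005. The arrangements assume no M against CK difference in either table, so a small p can also come from a difference in a single table. The exact permutation p was 0.005 for miR-199a-3p, 0.01 for miR-214-3p and 0.02 for miR-199a-5p, each for that single miRNA and not adjusted. Only the members were permuted, so no share over all miRNAs can be set beside these values. Without heart M library 2, 200 arrangements remain, and the exact permutation p was 0.005, 0.015 and 0.035 in the same order.

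**Figure D3:**
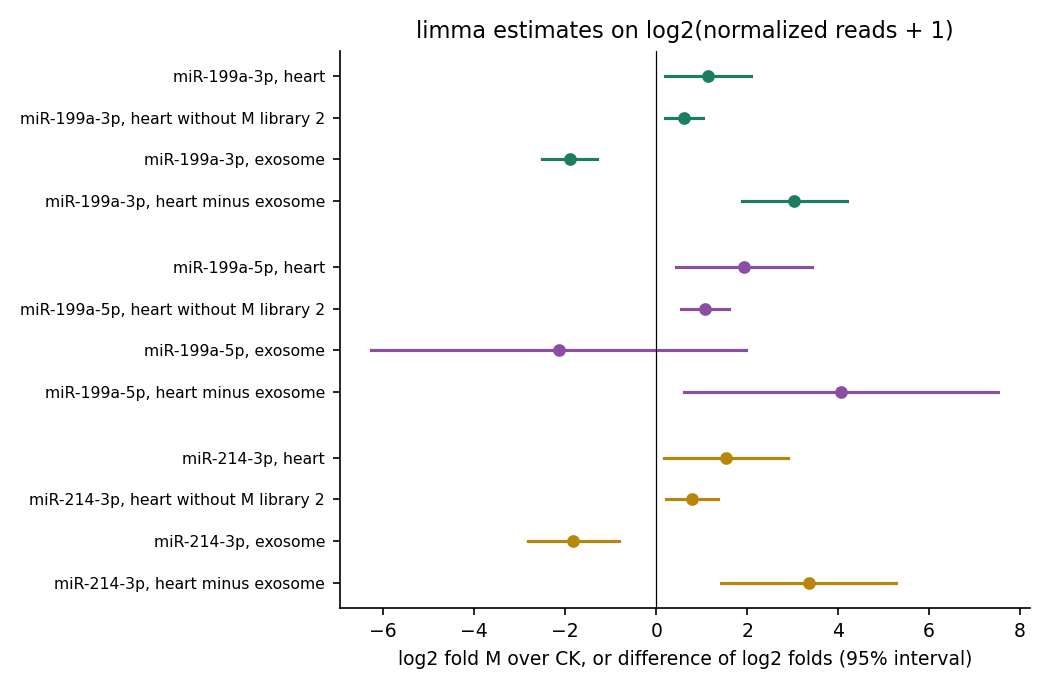
limma estimates with 95% intervals for each member, on the log2 scale, as M minus CK in heart, in heart without M library 2 and in the exosome table, and as the heart difference minus the exosome difference. The heart points lie right of 0 and the exosome points left of 0, the heart intervals narrow when M library 2 is left out, and the exosome interval of miR-199a-5p spans 0.

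Opposite directions were not rare among all miRNAs. Of 162 miRNAs with both group means above 0 and a larger mean of at least 100 in each table, 42 (25.9%) were higher in M in heart and lower in M in the exosome table. Only 5 (3.09%) differed more than 2-fold in both, of which 2 were miR-199a-3p and miR-214-3p. The others were miR-221-3p of vessel walls, miR-184 and miR-155-5p, which activated immune cells induce. Without heart M library 2, 32 of 125 with solved heart reads (25.6%) had these directions, and 1 (0.800%) passed 2-fold in both. That 1 was miR-184, which was 3.56-fold higher in heart M, while both members fell short in heart at 1.52-fold and 1.72-fold. miR-199a-5p was outside this comparison, with a larger exosome mean of 93.2.

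Among the 160 other miRNAs of this comparison, the one nearest to the members' median pair of log2 folds (1.62 in heart, -1.92 in the exosome table) was miR-221-3p. Its log2 folds were 1.24 in heart (p = 0.0941) and -1.36 in the exosome table (p = 0.0324 by the authors' deposited table), at a distance of 0.68. The next were miR-184 (0.78), miR-204-5p (0.92), miR-99b-3p (0.97), miR-155-5p (0.98) and miR-497-5p (1.12). The median pair is the midpoint of the 2 members in this comparison. Their own distance of 0.30 is therefore set by construction and is no yardstick for the others. Without heart M library 2 the median pair moved to 0.69 in heart, and over 123 others the nearest were miR-99b-3p (0.38) and miR-204-5p (0.44), with miR-221-3p at rank 4 (0.56) and miR-184 at rank 25 (1.38). None of the 6 named with all libraries passed at an adjusted p below 0.05 in either deposited table.

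**Figure D4:**
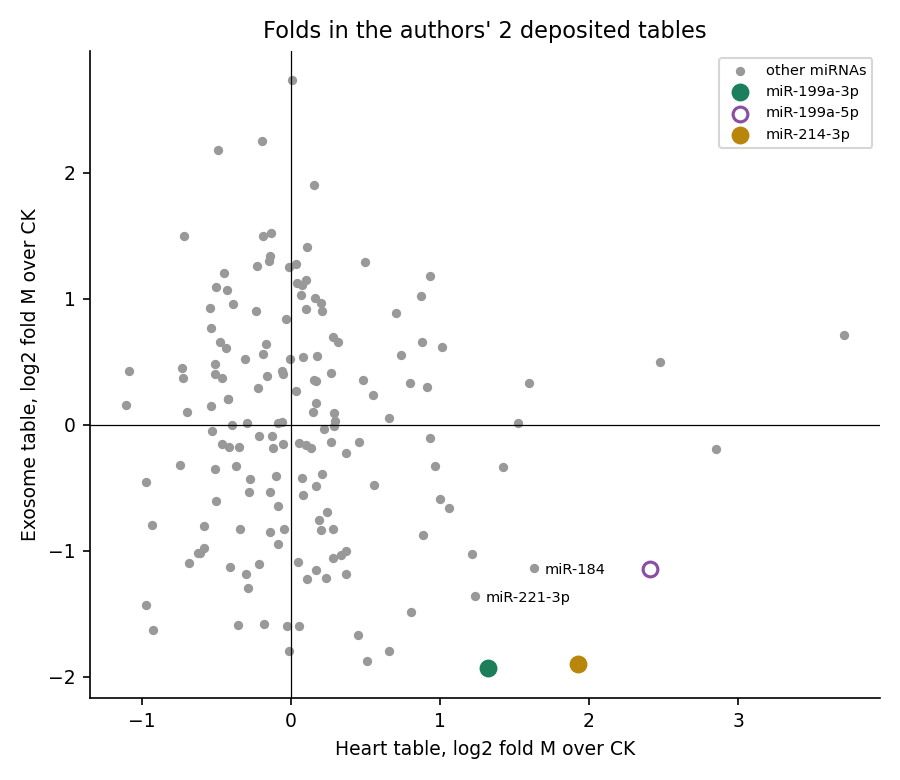
Log2 fold of M over CK in the heart table (horizontal) and the exosome table (vertical) for 162 miRNAs, from the authors' means. Filled coloured points are miR-199a-3p and miR-214-3p, which lie at the lower right edge near miR-221-3p and miR-184. The open point is miR-199a-5p, whose exosome means are below 100.

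Within 1 library the ratio of 2 members does not depend on the size factor, so these ratios can be set beside each other across the tables. Read numbers of different strands are still shaped by how well each is ligated, which was not corrected. In heart the 5p to 3p ratio of miR-199a was 0.33, 0.74 and 0.26 in CK libraries 1, 2 and 3 and 0.62, 1.09 and 0.49 in M. CK library 2 lay above M libraries 1 and 3, so the groups overlapped.

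In the exosome libraries the same ratio was 0.0092, 0.012 and 0.016 in CK and 0.045, 0.019 and 0.00066 in M. All 6 exosome libraries lay below all 6 heart libraries. From the authors' means, miR-199a-3p outnumbered miR-199a-5p 2.42-fold in heart CK, 1.14-fold in heart M, 80.6-fold in exosome CK and 46.6-fold in exosome M.

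miR-199a-5p and miR-214-3p, which come from neighbouring hairpins, kept a narrower ratio in heart. It was 3.30, 3.77 and 3.69 in CK libraries 1, 2 and 3 and 4.12, 5.35 and 4.66 in M. Every M library lay above every CK library, although the levels themselves ranged over 16.5-fold for miR-199a-5p. How often ratios of other miRNA pairs separate in this way was not examined, so nothing is read from this separation. The ratio of miR-199a-3p to miR-214-3p was wider, 5.10 to 14.2 in CK and 4.93 to 9.61 in M, with overlapping groups.

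In the exosome table, miR-199a-3p and miR-214-3p fell side by side in level. Their ratio was 2.05, 3.83 and 2.29 in CK libraries and 2.19, 1.92 and 3.58 in M libraries, with overlapping groups. The ratio of the authors' means was 2.42 in CK and 2.36 in M. The ratio of miR-199a-5p to miR-214-3p was at most 0.098 in any exosome library, against at least 3.30 in any heart library.

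**Figure D5:**
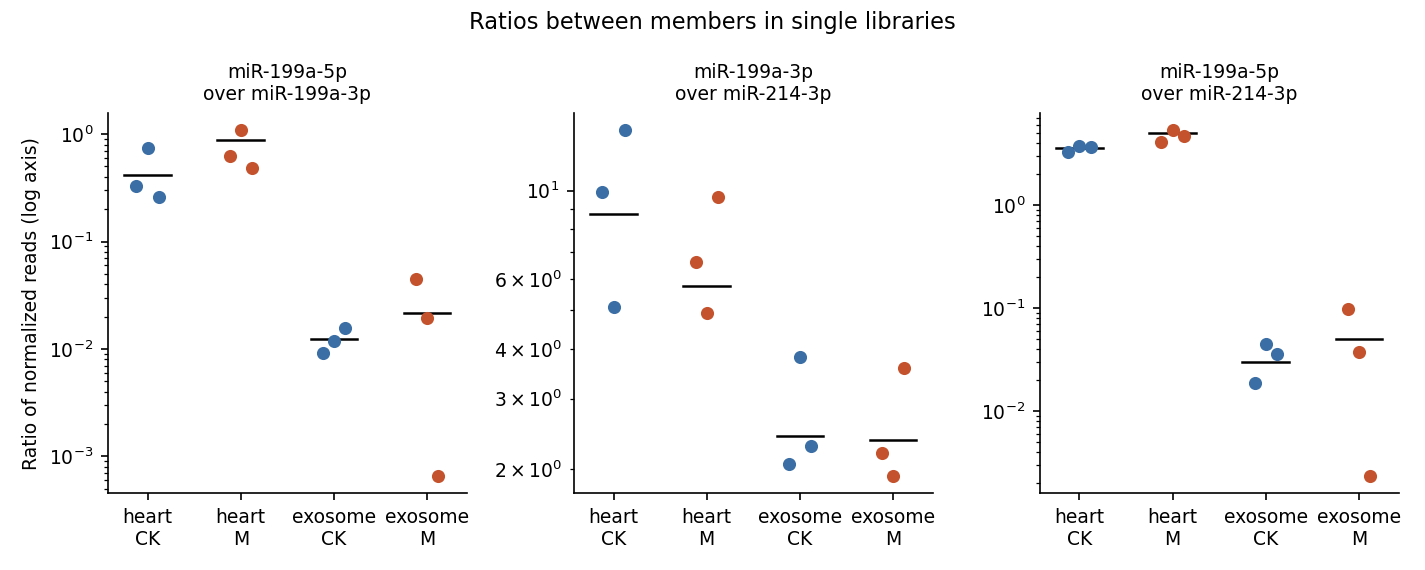
Ratios of normalized reads between members in single libraries, on log axes, for heart CK, heart M, exosome CK and exosome M. Points are libraries and black lines are ratios of the authors' means. Both ratios with miR-199a-5p on top are far lower in the exosome libraries than in the heart libraries, and the ratio of miR-199a-5p to miR-214-3p is tight in heart.

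The heart miRNAs most like each member over the 6 libraries were found by Pearson correlation of log2(normalized reads + 1) among 172 others with a mean of at least 100. These values describe 6 points that share M library 2 as an extreme. For miR-199a-5p the nearest were miR-214-3p (0.995), miR-452-5p (0.992) and miR-140-3p (0.986). For miR-214-3p they were miR-452-5p (0.996), miR-140-3p (0.995) and miR-199a-5p (0.995). For miR-199a-3p they were miR-140-5p (0.984), miR-152-3p (0.975) and miR-221-3p (0.968), and its own opposite arm ranked 10 (0.910). Without M library 2, miR-199a-5p and miR-214-3p stayed close (0.974), and miR-452-5p had 0.974 with the first and 0.993 with the second. For miR-199a-3p the same 3 fell to 0.904, 0.880 and 0.828, and its own opposite arm to 0.511 at rank 46. miR-152-3p, for example, had 10683, 10624 and 10785 normalized reads in CK and 17335, 34084 and 15598 in M libraries 1, 2 and 3.

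A list of 24 other miRNAs of mesenchymal cells and fibroblasts was read beside the members. The exosome table listed 21 of them, 20 with lower means in M and 1, miR-21-5p, with a higher mean. Of the 20, 3 (miR-21-3p, miR-132-3p and miR-212-3p) had reads in only 1 library, of CK, and none in M. Of all 367 exosome miRNAs 59.1% had a lower mean in M. The median log2 fold of the 18 list members with both means above 0 was -0.99, against -0.15 for all 287 such miRNAs. Of the 21, 3 fell past the adjusted threshold of the authors' test, as did 1.36% of all rows. These were miR-143-3p of smooth muscle, miR-10b-5p of a Hox gene cluster and miR-22-3p of heart and skeletal muscle. With those 3, 9 of the 21 were lower at an unadjusted p below 0.05, where 8.17% of all rows were. Among the other 6, miR-125b-5p had 18526 and 6192 normalized reads (p = 0.00575), miR-99a-5p 5350 and 1765.0 (p = 0.00458) and miR-100-5p 1302 and 409.6 (p = 0.0185 by the authors' deposited table). The remaining 3 were miR-29b-3p, which targets collagen mRNAs (p = 0.0143), miR-10a-5p (p = 0.0135) and miR-145-3p (p = 0.0457 by the authors' deposited table). Summed levels of the 14 solved members were 10185 to 15599 in the exosome CK libraries and 3586 to 5839 in M. The abundant miR-143-3p (means of 122436 and 61235) and miR-21-5p (41079 and 58027) are not among these 14. Over all 21 the summed mean was 289012 in CK and 179924 in M.

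In heart all 24 were listed, 15 with higher and 9 with lower means in M, and none passed at an adjusted p below 0.05. Of all 574 heart miRNAs 51.4% had a higher mean in M. The median log2 fold of the list was 0.41, against 0.03 for the 510 heart miRNAs with both means above 0. Of the 16 list members with solved reads, 11 were higher in M with all libraries and 11 without M library 2, while their median log2 fold went from 0.84 to 0.38. Of the 24, 6 were higher at an unadjusted p below 0.05, where 4.18% of all rows were, and 1 was lower, where 3.48% were. The 6 were miR-21-5p, miR-152-3p (10697 and 22339 normalized reads, p = 0.0419), miR-34c-5p (p = 0.0384), miR-218a-5p (572 and 981, p = 0.0470), miR-379-5p (p = 0.0222) and miR-411-5p (p = 0.0292), and the lower one was miR-29b-3p (p = 0.0320 by the authors' deposited table). miR-21-5p, the fibroblast miRNA with the largest heart mean of these, had a log2 fold of 2.48 in heart (p = 0.00132, adjusted p = 0.151) and of 0.50 in the exosome table (p = 0.113, adjusted p = 0.562 by the authors' deposited table), so unlike the miR-199a and miR-214 members it had higher means in M in both.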

How the data were processed

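Per the labels' protocols, Trizol extraction preceded library construction with the NEBNext small RNA kit. Bowtie2 2.2.6, DESeq 1.30.0 and build mRatBN7.2 appear, without a role, per the submitters' processing notes. For trimming, miRNA annotation and multiply matching reads, the procedure is not given in the sources used here. Per the file headers, the authors deposited group means (a signal, reads over size factors), their ratio (fold), its log2 and their p-value and adjusted p-value for each miRNA. The 2 tables were normalized separately.

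Each mean, printed to 15 digits, is a sum of whole reads times 3 steps, 1 per library. Triples were searched up to a mean of 30000, and rows with 1 solution (89.4% to 95.3% per group) were kept. Simulated means were used to test the search. limma 3.58.1 (R 4.3.3) with a mean-dependent prior ran on log2(normalized reads + 1) at a mean of at least 10. Nothing says that libraries are separate animals, so p-values measure the spread between libraries, which may be technical. Members, lists and naming rules (nearest 6 by fold pair, nearest 3 by library, list members at an unadjusted p below 0.05) were chosen with earlier results of these data known. Intervals of reads cover counting error only.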

Additional observations from a re-analysis of the deposited data

Results flagged for a closer look

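miR-199a-3p was picked out because its M against CK difference was not the same in the 2 tables. The heart difference exceeded the exosome difference by 3.04 on the log2 scale in the limma interaction fit (adjusted p = 0.00514). Of the 211 miRNAs in this fit, limma called 1.90% with heart higher at an adjusted p below 0.05. All 3 heart M libraries lay above all 3 heart CK libraries, as for 16.6% of 313 heart miRNAs. All 3 exosome M libraries lay below all 3 exosome CK libraries, and 17.8% of 270 exosome miRNAs had no overlap in either direction. Without heart M library 2, the heart library that stood apart, the heart difference of miR-199a-3p exceeded the exosome difference by 2.51 (limma adjusted p = 0.00219).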

How the results depend on the processing

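Every listed member kept its direction in both tables with 1 added to the means, with means rescaled to the same sum, in limma, with adjustment over miRNAs at a mean of at least 10, and without each library. Leave-one-out log2 folds in heart were 0.60 to 1.62 for miR-199a-3p, 1.04 to 2.84 for miR-199a-5p (passing in limma without M library 2) and 0.78 to 2.34 for miR-214-3p. In the exosome table they were -2.12 to -1.81, -2.11 to -0.57 and -2.25 to -1.65 in the same order. Adjusted p values without a library come from limma, so they change the test as well as the libraries, with the remaining spread assumed equal across groups. miR-214-3p passed in the exosome table in limma (-1.82) and not in the authors' test. Differences between the tables were 2.51 to 3.37, 2.48 to 5.10 and 2.60 to 3.93 without each library. The exact permutation test, unadjusted and run on the members only, passed for miR-199a-5p (4.07) and miR-214-3p (3.35) where adjusted limma did not. The same held without heart M library 2 (3.22 and 2.60), an alternative chosen after the data were seen. Before adjustment, limma with all libraries also gave p below 0.05 for both (0.0247 and 0.00252). The count of exosome miRNAs past the authors' threshold was 14 at an adjusted p below 0.05 and 22 below 0.1. The causes were not tested. No paired analysis was possible because the deposited columns carry no replicate numbers and recovered libraries cannot be matched to labelled samples. Counting error was largest for miR-199a-5p in the exosome libraries, where M library 3, the deepest of its group, held 1 read.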
